A study of Arabidopsis thaliana with 28 samples.

Results

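The WRKY family of Arabidopsis thaliana was followed in dark-grown seedlings given abscisic acid (ABA). Members were chosen as the listed WRKY loci that had a row in the deposited table, so they had passed the authors' filter on low reads. The list holds 55 loci, and 43 of them were in the table of 18310 genes. The other 12, WRKY12, WRKY30, WRKY31, WRKY35, WRKY41, WRKY43, WRKY51, WRKY54, WRKY55, WRKY63, WRKY71 and WRKY74, were not analysed here. The filter named with the table is a CPM of 2 in 2 libraries, a limit that 18282 of the 18310 genes met with the reads recovered here, so it is approximate. By it, 38 members passed in both treatments, WRKY56 through ABA libraries alone, and WRKY13, WRKY42, WRKY46 and WRKY61 through mock libraries alone. These 5 had to be high enough in one treatment to be in the table, so main counts are also given without them. Whole Col-0 seedlings had spent 3 days in darkness on nylon mesh over hydroponic medium, which all groups share. After that the medium held either 10 µM ABA or, in mock groups, ethanol, and seedlings were taken at 1, 4, 8, 12, 24, 36 and 60 h. Each of the 14 groups had 2 libraries, 28 in all, made from poly(A) RNA. Nothing in the labels tells whether the replicates came from different cultures, and a p-value therefore reflects only the spread among these libraries, which may be technical.

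WRKY proteins are plant transcription factors with a zinc finger domain that binds the W-box, a DNA element with the core TTGAC. They are known for roles in immunity, salicylate signalling, leaf senescence, nutrient starvation and ABA responses, and many WRKY genes carry W-boxes in their own promoters. The family is split by domain structure into group I, groups IIa to IIe and group III. The table held 10 of 10 listed members of group I, 3 of 3 of IIa, 7 of 8 of IIb, 9 of 13 of IIc, 6 of 7 of IId, 5 of 6 of IIe and 3 of 8 of group III.

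The promoters of 5 members that carry the results below are shown first, each as the 250 bases before the annotated start. WRKY6, WRKY75 and WRKY45 were higher with ABA, and WRKY72 and WRKY29 were lower. Capitals mark the W-box (TTGACC or TTGACT) and the core of the ABA response element, ABRE (ACGTG), on either strand. The windows come from the RefSeq sequence of build TAIR10.1, at chr1:23019495-23019744 (minus strand), chr5:4151202-4151451 (minus), chr3:327413-327662 (minus), chr5:4904040-4904289 (plus) and chr4:12291382-12291631 (plus).
WRKY6: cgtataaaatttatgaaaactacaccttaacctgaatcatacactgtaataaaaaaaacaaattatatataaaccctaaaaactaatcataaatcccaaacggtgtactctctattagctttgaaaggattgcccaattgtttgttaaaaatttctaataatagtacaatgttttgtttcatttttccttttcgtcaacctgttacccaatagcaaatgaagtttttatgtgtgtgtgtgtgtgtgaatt
WRKY75: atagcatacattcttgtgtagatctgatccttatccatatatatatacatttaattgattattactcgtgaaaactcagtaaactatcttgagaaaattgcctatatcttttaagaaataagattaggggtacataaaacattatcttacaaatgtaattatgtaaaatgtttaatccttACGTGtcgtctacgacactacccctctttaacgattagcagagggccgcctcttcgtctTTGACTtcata
WRKY45: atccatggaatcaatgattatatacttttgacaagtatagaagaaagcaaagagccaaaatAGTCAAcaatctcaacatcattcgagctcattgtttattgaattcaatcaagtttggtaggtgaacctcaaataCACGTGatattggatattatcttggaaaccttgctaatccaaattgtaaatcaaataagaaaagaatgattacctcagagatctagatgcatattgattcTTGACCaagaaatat
WRKY72: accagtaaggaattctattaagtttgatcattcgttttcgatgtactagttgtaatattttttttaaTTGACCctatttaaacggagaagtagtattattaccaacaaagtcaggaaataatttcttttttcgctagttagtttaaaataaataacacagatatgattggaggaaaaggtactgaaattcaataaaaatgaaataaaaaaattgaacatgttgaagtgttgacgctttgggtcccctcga
WRKY29: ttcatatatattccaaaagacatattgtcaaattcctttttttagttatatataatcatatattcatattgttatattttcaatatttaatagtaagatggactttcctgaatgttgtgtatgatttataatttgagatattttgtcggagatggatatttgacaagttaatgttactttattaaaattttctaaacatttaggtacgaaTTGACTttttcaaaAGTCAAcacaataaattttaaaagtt
The WRKY75 and WRKY45 windows held both elements, the WRKY72 and WRKY29 windows held W-boxes only, and the WRKY6 window held neither. A palindromic CACGTG, as in WRKY45, was counted as 2 overlapping ABRE cores. Among all 43 members, 16 windows (37.2%) held a W-box, against 28% of the 18057 genes with a window. At least 2 W-boxes stood in 7 members (16.3%), against 5.78% of genes. The ABRE core was in 11 member windows (25.6%), against 24.1% of genes. The window was shortened after these counts had first been seen for a longer one, which reached 50 bases into the transcript; there the W-box was in 39.5% of members and 32.4% of genes, and the ABRE core in 27.9% and 28.3%. Of the 13 members higher with ABA in the mean over times, 5 held an ABRE core and 4 a W-box. Among the 11 lower members, 1 held an ABRE core and 6 a W-box. Among the 19 members not called, 5 held an ABRE core and 6 a W-box. These matches describe letters in a window and are not shown to be sites.

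Levels are given in RPKM, the reads of a gene corrected for its length and for library depth. The means of members over all libraries ran from 0.777 RPKM for WRKY56 to 46.0 RPKM for WRKY15, with a median of 8.30 RPKM, against 12.1 RPKM for all genes. The highest were WRKY15, WRKY4 (35.7 RPKM), WRKY11 (34.4 RPKM), WRKY39 (31.9 RPKM) and WRKY21 (23.7 RPKM), of which all but WRKY4 belong to group IId, whose members bind calmodulin. All of these members overlapped in their ranges over libraries, which span the time course. In mock at 1 h WRKY39 was above WRKY4 (26.9 against 14.7 RPKM). With ABA at 60 h it was below (32.5 against 66.3 RPKM), so the order of the means does not hold at each time. Means below 1 RPKM were seen for 4 members, WRKY61, WRKY53, WRKY42 and WRKY56.

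Differences below subtract mock from ABA on the log2(RPKM + 1) scale, with ± giving the standard error from a model over all 28 libraries, and understate the change of weakly expressed genes. A member was called at an adjusted p under 0.05, with adjustment over all genes. ABA raised some members and lowered others. In the mean over the 7 times, 24 of 43 members were called, 13 higher and 11 lower; of all genes, 39.1% were called, 21.0% higher and 18.1% lower. Among the 38 members that passed in both treatments, 22 were called, 12 higher and 10 lower. With the replicate block, which pairs libraries by number, 30 of 43 were called (58.0% of all genes), 16 higher (29.1%) and 14 lower (28.9%). Percentages in brackets here and below are shares of all genes, not of members. The median member differed by -0.03 and the median gene by -0.01. At 1 h, 2 members were called (2.09% of all genes), 0 higher (1.7%) and 2 lower (0.393%). At 4 h, 7 were called (12.7%), 5 higher (8.98%) and 2 lower (3.74%). At 8 h, 7 were called (11.5%), 6 higher (7.92%) and 1 lower (3.57%). The later times looked much the same up to 24 h and had more calls at 36 h. At 12 h, 7 were called (12.5%), 5 higher (8.37%) and 2 lower (4.09%). At 24 h, 7 were called (10.5%), 5 higher (6.64%) and 2 lower (3.88%). At 36 h, 12 were called (13.8%), 7 higher (8.24%) and 5 lower (5.59%), and at 60 h, 9 (13.6%), 5 higher (7.84%) and 4 lower (5.73%). An F test for any ABA effect called 15 members (23.6% of genes), or 30 with the replicate block (47.0%). Of the 38 members that passed in both treatments it called 14, or 26 with the block. In all, 15 members were called at 1 time or more (24.2% of genes), 9 higher, 6 lower and 0 in both directions; with the block they were 32 (54.9%). Among the 38 members these counts were 13 and 27, and at the 7 times without the block 2, 6, 6, 6, 7, 10 and 8 of them were called. With the block, 7 members were called at 1 h (4.92%), 2 higher (3.89%) and 5 lower (1.03%). At 4 h they were 16 (27.3%), 9 higher (16.8%) and 7 lower (10.5%). At 8 h they were 19 (25.0%), 9 higher (15.5%) and 10 lower (9.46%), so the lower calls were then the more numerous, unlike without the block. At 12 h they were 17 (28.4%), 9 higher (16.6%) and 8 lower (11.8%). At 24 h they were 16 (24.4%), 9 higher (13.6%) and 7 lower (10.8%). At 36 h they were 21 (29.7%), 12 higher (16.0%) and 9 lower (13.8%). At 60 h they were 23 (28.6%), 9 higher (14.9%) and 14 lower (13.7%), again with more lower than higher. The authors' deposited table, at an FDR under 0.05, called 2, 9, 8, 8, 10, 12 and 11 members at these times, with 2.68%, 12.7%, 11.4%, 12.5%, 10.7%, 13.6% and 13.3% of genes. Those counts cover all 43 members and include WRKY56 at each time from 4 h on and WRKY61 at 36 h. When ABA and mock libraries of the same time and number were set side by side, 3 members were higher with ABA in all 14 pairs (8.9% of genes) and 8 were lower in all 14 (5.07%). The 8 included WRKY13, which passed the filter through mock libraries alone and so had to be high there. The 3 higher members all passed in both treatments.

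**Figure D1:**
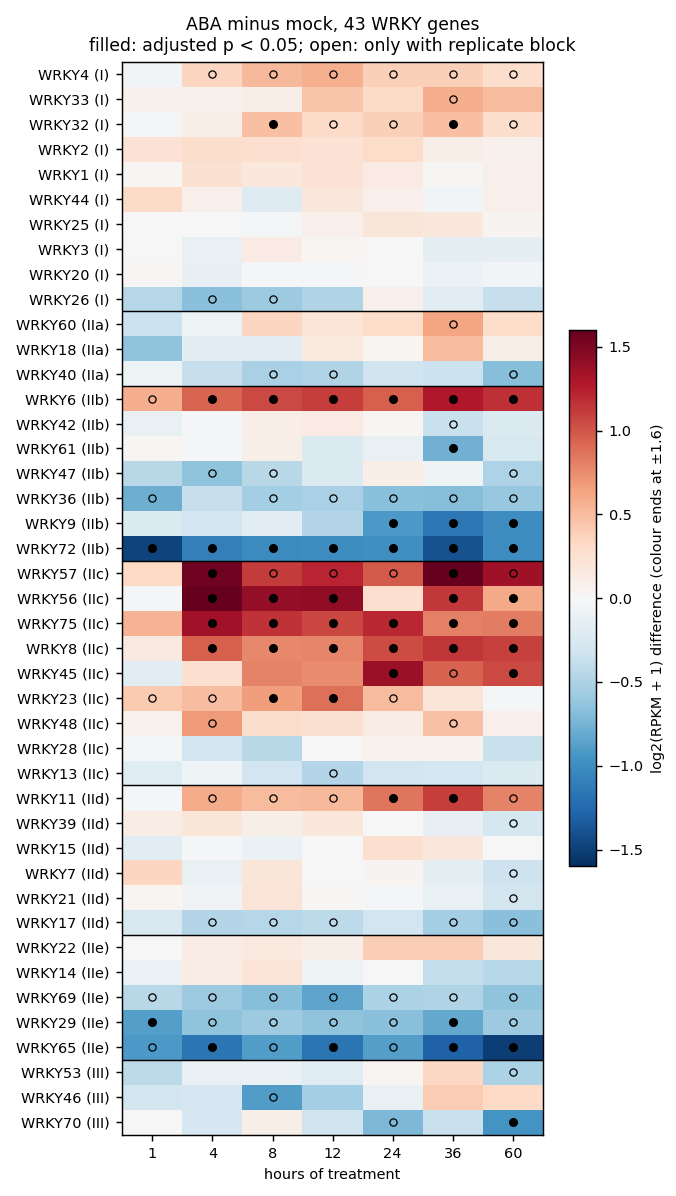
ABA minus mock difference of log2(RPKM + 1) for the 43 members (rows, by group) at 7 times (columns, hours), from 2 libraries per treatment and time; filled circles mark an adjusted p under 0.05 and open circles a call only with the replicate block. Group IIc holds the most raised members, and WRKY72 is the member called at all 7 times without the block. WRKY56 is in the table only through its ABA libraries, so its circles are not evidence of an ABA effect.

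By group, IIc held the most members called higher in the mean, a call made for 21.0% of all genes. These were 7 of 9, with 1 lower and a median of 0.72. Without WRKY56 and WRKY13, which passed the filter through 1 treatment, 6 of 7 were higher and 0 lower. In IIb, 1 of 7 was higher and 3 were lower (18.1% of all genes were lower), or 5 lower with the block, with a range from -1.14 (WRKY72) to 1.01 (WRKY6). In IIe, 0 of 5 were higher and 3 were lower; with the block 1 was higher. In group I, 4 of 10 were higher, or 5 with the block, and 1 was lower, and none of its 10 mean differences passed 0.38 in size. In IId the counts were 1 higher and 1 lower of 6. In IIa they were 0 and 1 of 3, or 1 and 1 with the block, and in group III 0 and 1 of 3, or 0 and 2 with the block.

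WRKY6 (AT1G62300), a factor of senescence and phosphate status known to repress the phosphate exporter gene PHO1, was higher with ABA in 14 of 14 pairs of libraries of the same time and number. Its lowest, median and highest mock values were 3.82, 5.41 and 11.7 RPKM, and those with ABA were 5.86, 12.5 and 29.9 RPKM. At 36 h the ABA libraries held 20.4 and 18.5 RPKM and the mock libraries 9.02 and 5.99 RPKM, with no overlap. The difference was 1.29 ± 0.21 at 36 h (adjusted p = 0.000292) and 1.01 ± 0.08 in the mean (adjusted p = 7.28e-09). It was called at 6 times, from 4 h on. At 1 h the ABA libraries (7.92 and 5.86 RPKM) were also above mock (4.70 and 3.82 RPKM), and with the replicate block all 7 times were called.

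WRKY75 (AT5G13080), which acts in phosphate starvation and root hair growth, was also higher in 14 of 14 pairs. Mock libraries ran from 0.912 through a median of 2.24 to 7.18 RPKM, and ABA libraries from 2.22 through 6.01 to 14.6 RPKM. At 4 h the values were 5.17 and 4.92 RPKM with ABA and 1.97 and 0.912 RPKM in mock. These groups did not overlap, and the difference was 1.34 ± 0.23 (adjusted p = 0.000353). Its 6 calls, from 4 h on, had differences of 0.80 to 1.34; those at 36 and 60 h were lost with a pseudocount of 0.1 and in a fit of the 4 libraries of the time alone, and that at 36 h under quantile scaling too.

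WRKY45 (AT3G01970), a close relative of WRKY75 known to activate the phosphate transporter gene PHT1;1, was called only at 24 h and 60 h. At 24 h it stood at 17.4 and 22.8 RPKM with ABA and at 8.16 and 6.09 RPKM in mock. The ABA libraries were both above the mock libraries, by 1.38 ± 0.32 (adjusted p = 0.00653). At 60 h, the values were 34.0 and 44.5 RPKM against 18.2 and 18.3 RPKM. The 60 h call (1.05 ± 0.32) was lost without any 1 of the 4 libraries of that time, with a pseudocount of 0.1 and under quantile scaling; with the replicate block 36 h was called too (adjusted p = 0.0489).

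WRKY8 (AT5G46350), known from salt tolerance and defence against viruses, was weakly expressed at first and rose in both treatments. Mock libraries ran from 0.296 through 0.634 to 2.78 RPKM and ABA libraries from 0.382 through 1.86 to 7.33 RPKM. At 60 h they were at 7.33 and 6.47 RPKM with ABA and 2.78 and 2.63 RPKM in mock. ABA and mock did not overlap there, with a difference of 1.09 ± 0.14 (adjusted p = 2.26e-05). It was called at 6 times, from 4 h on, and its mean difference was 0.84 ± 0.05.

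WRKY56 (AT1G64000) was near zero in mock seedlings: 9 reads in all in the 14 mock libraries, 8 of which held 0, against 394 reads in the 14 ABA libraries. At 4 h it reached 5.39 and 4.53 RPKM with ABA, against 0.140 and 0 RPKM in mock. Those were 191 against 3 reads, summed over the libraries of each group, a ratio of 67.7. At 36 h, 42 reads stood against 0, at least 13.9-fold higher against a floor of 3 reads over the group. On the log2 scale its differences were 2.48 at 4 h and 0.27 at 24 h. WRKY56 entered the table through its ABA libraries alone, so it had to be high there. No test of its ABA effect is given on its own, and counts over all 43 members include it.

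WRKY57 (AT1G69310), known from drought tolerance and leaf senescence, was higher in 14 of 14 pairs, with a mean difference of 1.16 ± 0.18 (adjusted p = 4.79e-05). At 36 h it held 19.97 and 11.5 RPKM with ABA and 7.25 and 2.45 RPKM in mock. The groups did not overlap, but the replicates lay far apart, and 2 times were called, 4 h and 36 h. With the replicate block it was called at 6 times, from 4 h on. The 4 h call (1.56 ± 0.49, adjusted p = 0.0415) was lost with voom weights and without each of 10 libraries in turn.

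WRKY11 (AT4G31550), a negative regulator of basal resistance, was among the highest members. At 36 h it held 68.7 and 60.1 RPKM with ABA and 35.3 and 24.5 RPKM in mock, with no overlap. The difference was 1.1 ± 0.26 (adjusted p = 0.00656). It was called at 24 h and 36 h, and with the replicate block at 6 times, from 4 h on. The 24 h call (0.85 ± 0.26, adjusted p = 0.0431) was lost under quantile and median-ratio scaling, with voom weights, in a fit of the 4 libraries alone and without each of 15 libraries in turn. WRKY4 (AT1G13960), which acts in resistance to necrotrophic fungi, was higher by 0.35 ± 0.07 in the mean (adjusted p = 0.000641) and in 13 of 14 pairs, with no call at a single time except with the replicate block, at 6 times.

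**Figure D2:**
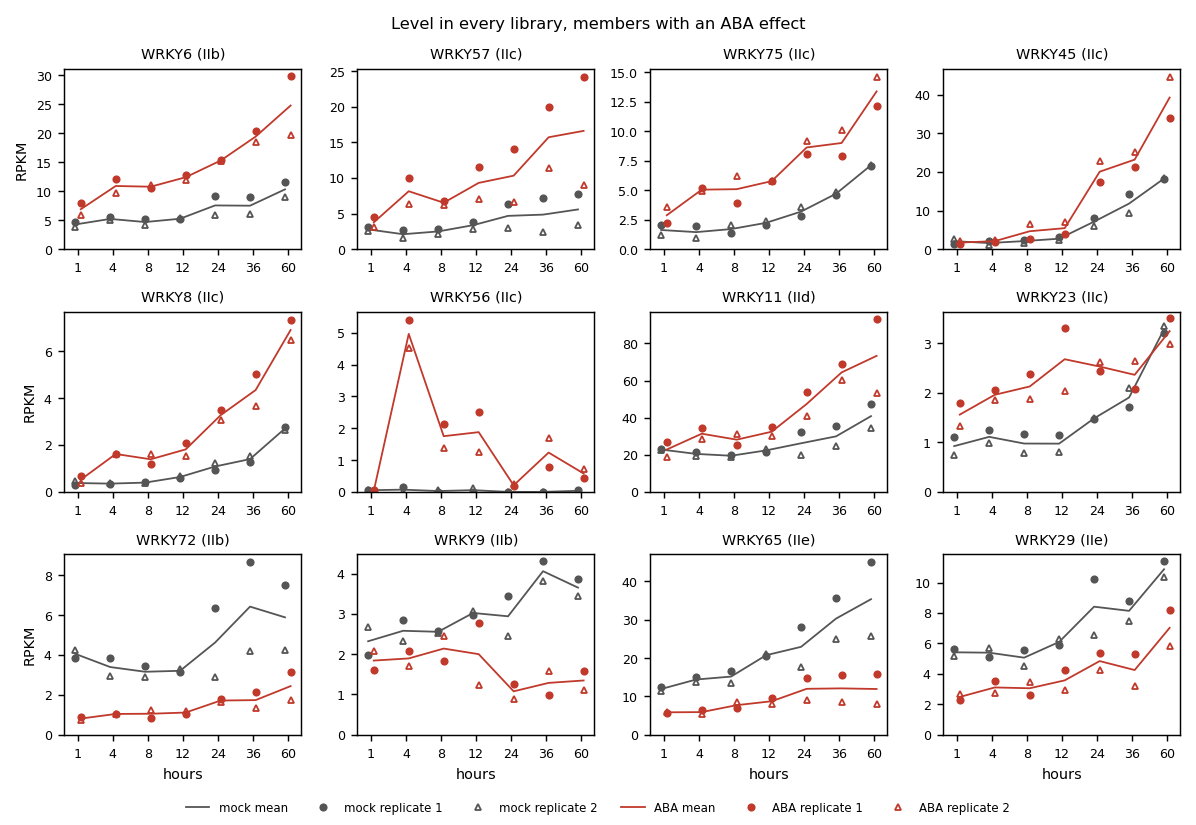
RPKM in every library (vertical axis) by hours of treatment (horizontal axis, evenly spaced) for 12 members, ABA in red and mock in grey; filled circles are replicate 1, open triangles replicate 2, and lines join means of 2 libraries. WRKY6 stands above mock at all 7 times and WRKY8 from 4 h on, WRKY56 peaks at 4 h, and WRKY72 stays below mock at all 7 times.

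Members that fell were led by WRKY72 (AT5G15130), which acts in basal defence. Its mock libraries ran from 2.89 through 3.86 to 8.66 RPKM and its ABA libraries from 0.748 through 1.21 to 3.15 RPKM. At 1 h the values were 0.864 and 0.748 RPKM with ABA and 3.87 and 4.25 RPKM in mock. The groups were apart at every time, and it was called at all 7, with differences from -1.49 ± 0.30 at 1 h (adjusted p = 0.0079) to -0.98 ± 0.30 at 24 h. The 1 h, 8 h and 12 h calls were each lost without any 1 of the 4 libraries of that time, the 24 h call with voom weights and without each of 13 libraries, and all 7 held with the replicate block.

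WRKY65 (AT1G29280) fell by 1.12 on the log2 scale in the mean (SE 0.12, adjusted p = 4.06e-07) and was lower in 14 of 14 pairs. At 60 h it held 15.7 and 8.10 RPKM with ABA and 45.1 and 25.7 RPKM in mock, with no overlap. It was called at 4 h, 12 h, 36 h and 60 h, and at all 7 times with the replicate block. The 4 h and 12 h calls were lost without any 1 of the 4 libraries of that time. WRKY69 (AT3G58710) of the same group was at 12.0 and 7.07 RPKM against 18.8 and 12.1 RPKM at 60 h, where the groups did not overlap but the higher ABA library came close to the lower mock library. Its mean difference was -0.60 ± 0.14 (adjusted p = 0.00185), with no single-time call, but with 7 under the block.

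WRKY29 (AT4G23550), which works downstream of the immune MAP kinase cascade, was lower in 14 of 14 pairs, with a mean difference of -0.69 ± 0.08 (adjusted p = 1.54e-06). At 1 h it held 2.29 and 2.67 RPKM with ABA and 5.66 and 5.17 RPKM in mock. The groups did not overlap and differed by -0.88 ± 0.22 (adjusted p = 0.0395), a call lost with voom weights and without each of 8 libraries in turn, while with the replicate block all 7 times were called. WRKY9 (AT1G68150), known from suberin deposition under salt, diverged late: at 36 h it held 0.979 and 1.59 RPKM with ABA and 4.31 and 3.82 RPKM in mock. It was called at 24, 36 and 60 h (-0.92, -1.16 and -0.99). WRKY36 (AT1G69810) had a mean difference of -0.60 ± 0.16 (adjusted p = 0.00499) and no single-time call, but 6 with the block.

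In bulk seedlings, fewer cells of a type and less RNA per cell cannot be told apart. The summed level of 6 root markers was lower with ABA at late times: at 60 h it was 184 and 105 RPKM with ABA and 333 and 215 RPKM in mock, and at 1 h 213 and 140 RPKM against 168 and 160 RPKM. Most of this sum was CASP1, a root endodermis gene, and SMB, a root cap gene, was near 0 in some libraries (lowest 0.0604 RPKM). At each time replicate 1 was above replicate 2 in this sum in both treatments, as were WRKY65, WRKY69, WRKY36 and WRKY72 in mock at 24, 36 and 60 h. The sum of 7 markers of shoots and etiolated seedlings, called shoot markers below, was 1382 and 1227 RPKM against 2410 and 2077 RPKM at 60 h. Most of the sum with ABA at 60 h was the aquaporin gene PIP2A, which was at 928 RPKM or more in every library. At 1 h with ABA it was not, since the sum was 5898 and 6234 RPKM and PIP2A reached at most 2475 RPKM. The part of tissue makeup in the differences above was not tested.

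Group IIa, WRKY18, WRKY40 and WRKY60, is best known in this hormone context, since its members act in ABA signalling and defence. None was called at a single time. WRKY40 (AT1G80840) was lower in 13 of 14 pairs and called in the mean (-0.40 ± 0.09, adjusted p = 0.00165). At 60 h it held 5.01 and 9.18 RPKM with ABA and 9.89 and 13.5 RPKM in mock, which did not overlap. WRKY18 (AT4G31800) had 21.6 and 15.7 RPKM at 1 h with ABA and 26.4 and 32.4 RPKM in mock, a difference of -0.64 ± 0.24 (adjusted p = 0.379). Its mean difference was -0.03 ± 0.09, and that of WRKY60 was 0.19 ± 0.15. With the replicate block, WRKY40 was called at 8, 12 and 60 h and WRKY60 at 36 h and in the mean (adjusted p = 0.00563).

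**Figure D3:**
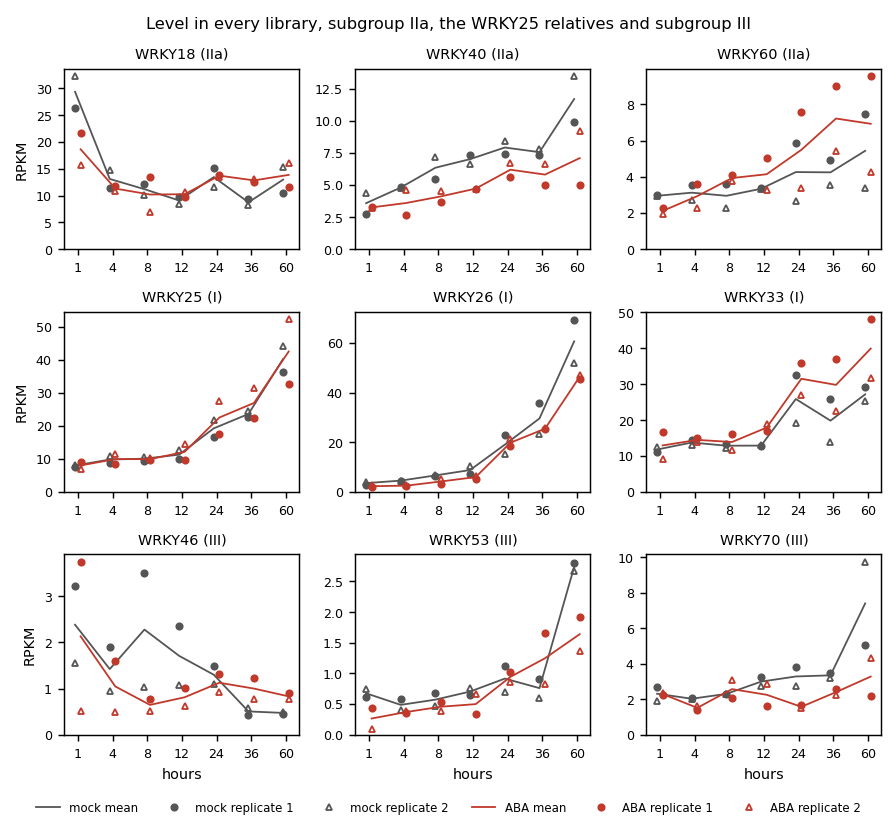
RPKM in every library (vertical axis) by hours (horizontal axis, evenly spaced) for group IIa, WRKY25 with its relatives WRKY26 and WRKY33, and the 3 measured members of group III; ABA in red, mock in grey, replicate 1 filled, replicate 2 open, lines through means of 2 libraries. WRKY26 climbs in both treatments, while WRKY18 is highest at 1 h.

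Whether the ABA effect differed between times was tested by an F test over the 7 times. It was called for 1 of the 38 members that passed in both treatments, WRKY8 (adjusted p = 0.0449), with 4.17% of all genes called. With the replicate block 7 of the 38 were called (14.2% of genes), WRKY8 not among them (adjusted p = 0.0693). WRKY9 had the next smallest p without a call (adjusted p = 0.203), and was called with the block (0.0465). The effect at 4 h minus that at 1 h was called for WRKY8 alone among the 38 (2.27% of genes). With the block 1 of the 38 was called (7.11% of genes), a IIc member other than WRKY8. The effect at 60 h minus that at 4 h was called for 0 of the 38 (2.46% of genes), or 2 with the block (11.5%).

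Most members rose with time in mock seedlings. From 1 h to 60 h, 33 of 43 members changed in mock seedlings, 30 higher and 3 lower, or 28 and 2 of the 38 that passed in both treatments; of all genes, 61.4% changed, 30.3% higher and 31.1% lower. The median member differed by 1.102 and the median gene by 0.01. The 5 largest called changes were rises of WRKY26 (3.77 ± 0.24), WRKY45 (2.69 ± 0.32), WRKY22 (2.36 ± 0.23), WRKY25 (2.19 ± 0.25) and WRKY15 (2.17 ± 0.16). WRKY26 (AT5G07100) went from 2.92 and 4.13 RPKM to 69.3 and 52.0 RPKM, without overlap; WRKY25 and WRKY26 are known from heat tolerance. WRKY22 (AT4G01250), a partner of WRKY29 in immune signalling, went from 4.37 and 6.05 RPKM to 31.8 and 29.6 RPKM. The 3 that fell were WRKY18 (26.4 and 32.4 to 10.5 and 15.4 RPKM, -1.14 ± 0.24), WRKY46 (-1.16 ± 0.43) and WRKY44 (-0.99 ± 0.23); WRKY46 and WRKY44 were named after their values had been seen. In mock at 24, 36 and 60 h, 32, 34 and 33 of 43 members were higher in replicate 1, against 48.0 to 50.8% of all genes. The root marker sum was higher in replicate 1 there too, and its part was not tested. The mock seedlings also aged over the course, and time and age cannot be told apart.

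**Figure D4:**
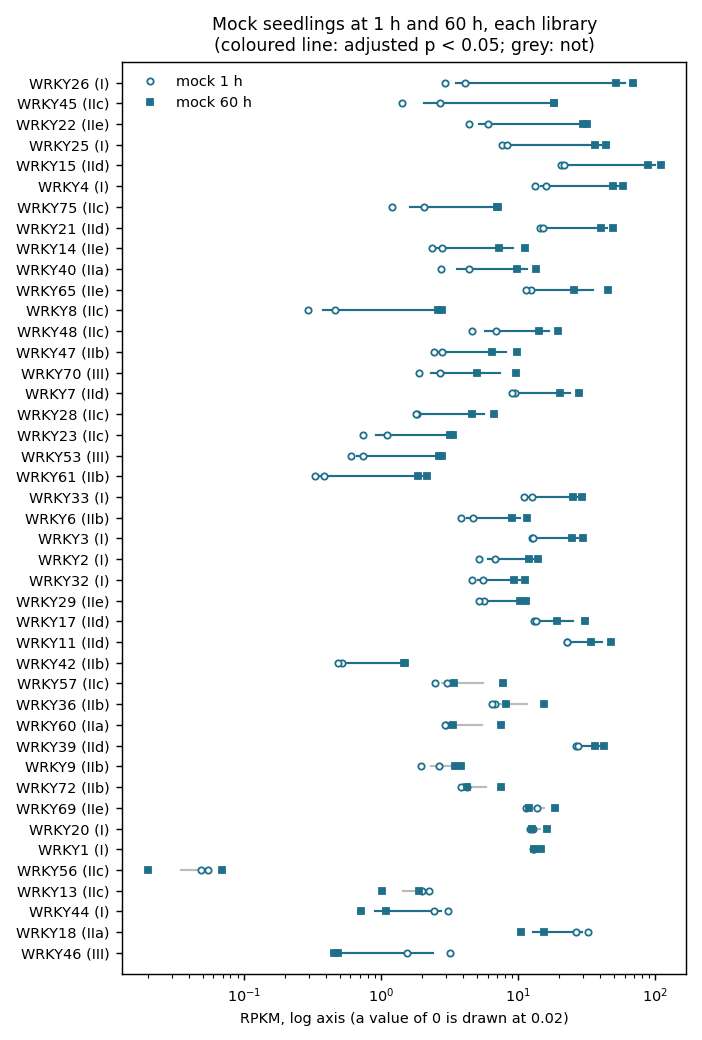
RPKM on a log axis of the 43 members in mock libraries at 1 h (open circles) and 60 h (filled squares), 2 libraries each, sorted by the log2 difference; lines join the group means, coloured where the adjusted p was under 0.05. Of the 43 members, 30 rose and 3 fell.

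Some related members differed in their response to ABA. These 15 pairs were chosen after the members' effects had been seen, so their differences are described without a test. The difference between the members of a pair was at least 0.5 for 7 of the 15. WRKY11 and WRKY17 differed by 1.06 (SD 0.44 over 14 pairs of libraries), with means of 0.62 and -0.44, and WRKY11 was above in 14 of 14. WRKY6 and WRKY42 differed by 1.08 (SD 0.38), with means of 1.01 and -0.07. WRKY61 and WRKY72 (0.95) and WRKY22 and WRKY29 (0.88) also differed in 14 of 14 pairs of libraries, and WRKY8 and WRKY28 (0.99) in 13. The pair WRKY21 and WRKY39 (-0.06) and the pair WRKY7 and WRKY15 (-0.02) were close to 0. WRKY42, WRKY61, WRKY28 and WRKY8 are weakly expressed, so the added 1 shrinks their differences, and WRKY42 and WRKY61 passed the filter through mock libraries alone; with 0.1 in its place WRKY8 and WRKY28 differed by 1.57.

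**Figure D5:**
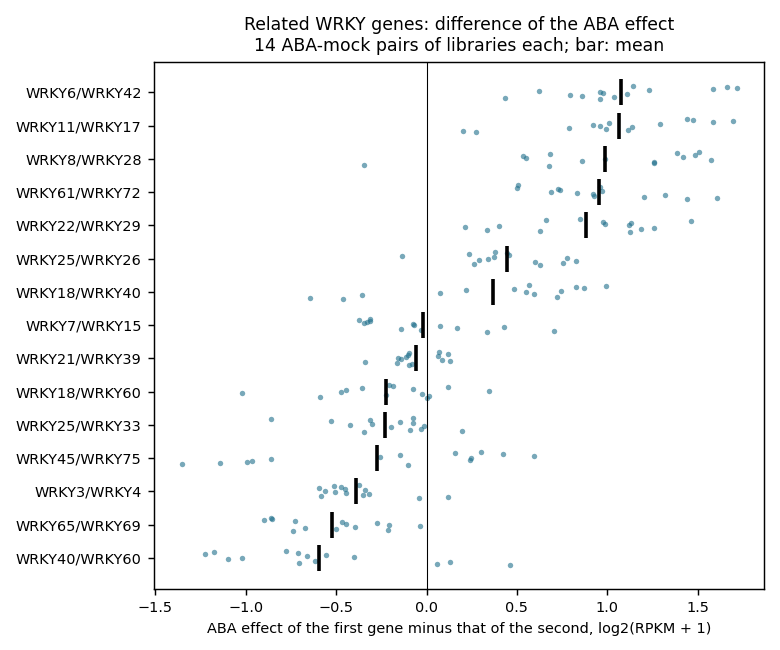
Difference in the ABA effect, log2(RPKM + 1), between the first and second gene of 15 related pairs (rows); each point is 1 of 14 pairs of ABA and mock libraries of the same time and number, and bars mark means. WRKY6 and WRKY11 lie above their relatives WRKY42 and WRKY17 in 14 of 14.

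Genes tied to these factors were taken from 12 lists, with changes counted in the mean over times. Of all genes, 21.0% rose and 18.1% fell in that mean. Totals below cover only the listed genes that were measured, such as 7 of 11 secondary wall genes. Of 10 ABA genes tied to WRKY18, WRKY40 and WRKY60, 8 rose and 0 fell, with RAB18, a dehydrin, highest (4.34 ± 0.16), then ABI2 (2.24 ± 0.07), ABI5 (1.92 ± 0.12) and ABI1 (1.67 ± 0.06). Of 8 phosphate genes, 1 rose, the phosphatase gene PAP17 (2.33 ± 0.09), and 2 fell, the transporter gene PHT1;1 (-2.57 ± 0.08) and PHO1 (-1.26 ± 0.07). PHT1;1 can share reads with near-identical neighbours in its family, so its value is uncertain. Of 7 senescence genes, 5 rose and 0 fell, among them SAG21 (1.01 ± 0.14), NAC092 (0.98 ± 0.11), SGR1 (0.89 ± 0.06) and NAP (0.84 ± 0.09).

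Of 10 genes of the salicylate pathway, 1 rose, the transporter gene EDS5 (0.38 ± 0.11), and 6 fell, among them PAD4 (-0.48 ± 0.05), CBP60G (-0.47 ± 0.15), ICS1, the synthesis enzyme (-0.40 ± 0.15), and EDS1 (-0.29 ± 0.06). Of the 4 measured defence targets bound by WRKY factors, 3 rose and 0 fell: ACS2 of ethylene synthesis (0.95 ± 0.08), CYP83B1 (0.49 ± 0.11) and FRK1 (0.35 ± 0.07), which is also in the senescence list. Of 9 immune MAP kinase genes, 1 rose, MKK9 (0.95 ± 0.07), and 0 fell, or 2 and 1 with the block; neither count is above the share of all genes. Of 7 VQ proteins, which bind WRKY factors, 0 rose and 2 fell, IKU1 (-0.41 ± 0.07) and JAV1 (-0.29 ± 0.09).

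Of 9 early stress transcription factors, 2 rose, ERF4 (0.85 ± 0.06) and ZAT10 (0.71 ± 0.11), and 3 fell, among them ERF6 (-0.53 ± 0.09). Of 7 secondary wall genes, 5 rose and 0 fell, led by the regulator MYB46 (0.48 ± 0.11). The median difference of these 7 was 0.57 at 4 h and 0.505 at 12 h. It was 0.062 at 1 h, 0.19 at 24 h, 0.052 at 36 h and 0.001 at 60 h. Of 6 epidermal fate genes, 0 rose and 1 fell, TTG1 (-0.26 ± 0.06). Of the 6 root markers 2 fell, SMB (-0.58 ± 0.07) and SHR (-0.26 ± 0.09), and of the 7 shoot markers 4 fell, among them SAUR9 (-0.73 ± 0.12) and RBCS3B (-0.66 ± 0.10). With the replicate block (29.1% of all genes rose and 28.9% fell), 5 root markers, 5 shoot markers and 3 epidermal genes fell, and 0, 1 and 0 rose. The block counts, rising and falling, were 8 and 0 for the ABA genes, 2 and 3 for phosphate, 6 and 1 for senescence, 1 and 7 for salicylate and 4 and 0 for defence targets. They were 1 and 2 for VQ proteins, 2 and 4 for early stress factors and 6 and 1 for secondary wall genes.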

How the data were processed

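Depth was 16.27 to 26.6 M reads per library in the kept genes (median 20.55 M), as recovered from the deposited table. The authors' deposited values are RPKM, per the file headers, with their log2 fold change and FDR (an adjusted p-value) of ABA against mock at each time. Per the submitters' processing notes, HTSeq 0.5.4 and edgeR 3.6.2 were used with build TAIR10; the aligner and the use of strand in counting are not given in the sources used here, so overlapping antisense genes and near-identical paralogs are uncertain. All 512680 values (100%) were whole reads within 0.01.

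Here log2(RPKM + 1) was fitted with limma 3.58.1 in R 4.3.3 (14 group means, 28 libraries, intensity trend, two-sided, 14 residual degrees of freedom), with Benjamini-Hochberg adjustment over 18310 genes. On data simulated for 4 h, 74% of 2-fold and 98% of 4-fold changes were recovered among 18310 genes, with 8 unchanged genes called. The simulation used 1 fixed spread, no change over time and no deviation shared by libraries of a replicate number. Its changed genes were drawn only from those above a read limit. These rates may therefore not hold for the real libraries or for weakly expressed members. Replicate numbers paired the libraries: replicate deviations correlated between ABA and mock at each of the 7 times (r from 0.43 to 0.74 across genes).

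Genes were named if called with a difference of at least 1 at a time or 0.5 in the mean, if in group IIa, if among the 3 smallest p for a time-dependent effect, the 5 largest mock changes or the 5 highest levels; WRKY13, WRKY17, WRKY42 and other members beyond that rule were named after their values were seen. Members, lists and this rule were chosen with earlier results of these data known. Names, positions and promoters came from RefSeq TAIR10.1; 253 genes had no match. Alternatives are given below.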

Additional observations from a re-analysis of the deposited data

Results flagged for a closer look

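The ABA effect of WRKY56 was 2.51 larger at 4 h than at 1 h, and from 4 h to 60 h it fell by 1.87 on the log2 scale. WRKY56 is in the table only through its ABA libraries, so these values are a description, with no test. The effect of WRKY8 was 0.81 larger at 4 h than at 1 h, a called difference between times whose call was lost with the replicate block, with voom weights and without each of 11 libraries in turn.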

How the results depend on the processing

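No called difference of a named member changed direction under any alternative run. Counts of members called moved by over 1.5 times as follows, and the cause was not tested. Unless said otherwise these counts cover all 43 members, and so include WRKY56, which is in the table only through its ABA libraries. With the replicate block they were 32 at any time (15 without it), 7, 16, 19, 17, 16, 21 and 23 at the 7 times, 3 for the 60 h minus 4 h difference of the ABA effect (1 without the block), 30 for any ABA effect (15) and 8 for an effect that differs between times (2). With voom weights on recovered reads they were 1 at 1 h, 1 for 4 h minus 1 h, 0 for 60 h minus 4 h and 0 for the time-dependent effect. Fitting only the 4 libraries of a time gave 11 at 4 h and 3 each at 24, 36 and 60 h. WRKY56 aside, that fit lost the 24 h calls of WRKY6, WRKY9, WRKY72 and WRKY11. It also lost the 36 h calls of WRKY72, WRKY57, WRKY75, WRKY11, WRKY29 and WRKY65. At 60 h the calls of WRKY6, WRKY72, WRKY75 and WRKY65 were lost. Keeping genes with a mean of at least 1 RPKM gave 1 for 4 h minus 1 h, 0 for 60 h minus 4 h and 0 for the time-dependent effect; WRKY56 was then not tested. A pseudocount of 0.1 gave 0 for 60 h minus 4 h and 1 for the time-dependent effect, and quantile normalization gave 1 for the latter. Counting, as chosen after seeing the data, the 38 members that passed the filter in both treatments gave 1 for 4 h minus 1 h, 0 for 60 h minus 4 h and 1 for the time-dependent effect. Leaving out 1 library gave 0 to 2 at 1 h, 3 to 8 at 4 h, 4 to 7 at 8 h, 5 to 8 at 12 h, 3 to 8 at 24 h, 6 to 13 at 36 h, 5 to 10 at 60 h, 23 to 26 in the mean, 1 to 2 for 4 h minus 1 h, 1 to 1 for 60 h minus 4 h, 30 to 34 for the mock change, 13 to 17 for any effect, 1 to 3 for the time-dependent effect and 29 to 33 for mock over time. Calls at 36 h of WRKY72, WRKY65 and WRKY29, at 60 h of WRKY72 and WRKY65 and at 24 h of WRKY9 were lost without mock replicate 1 or ABA replicate 2 of that time; those at 36 h of WRKY11 and WRKY57 and at 4 h of WRKY6 without ABA replicate 1 or mock replicate 2; that at 24 h of WRKY6 without mock replicate 2; that at 24 h of WRKY45 without either replicate 2; that at 8 h of WRKY75 without ABA replicate 2; those at 36 and 60 h of WRKY75 without either mock library or ABA replicate 2; and that at 4 h of WRKY72 without either ABA library or mock replicate 1. With 2 libraries per group, the median standard error at a single time was 0.19, or 0.12 with the replicate block.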
